A study of Mus musculus with 6 samples.

Results

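ATF4 is a transcription factor made when the kinases of the integrated stress response phosphorylate the translation initiation factor eIF2. That step slows protein synthesis in general but lets the Atf4 messenger be translated. ATF4 then pairs with C/EBP proteins and raises genes that import amino acids, make them, and later undo the translation block. In fibroblasts the same set also follows growth signals, since serine and glycine feed collagen and nucleotide synthesis.

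The genes described here are 36 symbols of this pathway, matched by gene name in the tables of all 6 libraries, where 55401 gene models are listed. Ddit3 is carried by a pair of models, so 37 models were found, and 35 of the 36 symbols had enough counts to be tested among 17159 genes. The cells were NIH3T3, an immortalised mouse embryonic fibroblast line labelled wild type. A control group of 3 libraries received the vehicle DMSO and a treated group of 3 received IPRN. Angelicin, a furanocoumarin from plants, is named in the title of the series, and TGF-β and hydrogen peroxide are described in its design text as inducers. Neither a dose nor a duration is labelled, nor whether the DMSO cells also received these inducers. Nothing in the labels ties the replicates to distinct cultures, so each p-value reflects the scatter among 6 libraries, and that scatter could be technical.

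Library totals ran from 60320282 to 78629444 counts. All 12 fibroblast markers were present, summing to between 22877 and 27658 CPM (counts scaled to library size with TMM normalisation). Transcripts of 22 liver genes summed to 5.11 and 6.23 CPM in DMSO 1 and IPRN 3 and to between 40.6 and 127.5 CPM in the other libraries. Macrophage markers summed to 136.7 CPM in IPRN 3, mostly Lyz2, and to at most 16.2 CPM elsewhere. Fits without DMSO 1 and IPRN 3, and fits with a liver term, were made as alternatives, and otherwise the part of these transcripts in the results was not tested. IPRN 1 stood apart from IPRN 2 and IPRN 3. It was the library farthest from the IPRN median for 65.7% of the members, against 44.0% of all tested genes.

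The member promoters come first, because some of them hold letters of the element through which ATF4 is known to act. RefSeq promoters on GRCm38.p6, from 250 bases before to 50 bases after each transcript start, matched 31 of the 36 symbols. The motif TGATGNAA, the core of the C/EBP-ATF response element, was searched on both strands. It was found in 9 of those 31 genes (29.0%), against 4.51% of 27025 genes in the whole table. The members share this regulator by their definition, so the contrast describes the list and tests nothing. Windows of 30 bases around the 7 matches that stand outside the longer promoters are given 5′ to 3′ on the gene's own strand, with the element in capitals.
Trib3 (chr2:152344028-152344057, minus strand): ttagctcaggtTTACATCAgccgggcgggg
Nupr1 (chr7:126625562-126625591, minus strand): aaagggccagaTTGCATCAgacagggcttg
Slc1a4 (chr11:20332699-20332728, minus strand): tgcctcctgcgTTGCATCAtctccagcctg
Pycr1 (chr11:120643833-120643862, minus strand): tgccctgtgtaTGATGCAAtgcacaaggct
Jdp2 (chr12:85599372-85599401, plus strand): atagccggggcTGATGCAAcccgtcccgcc
Vldlr (chr19:27216809-27216838, plus strand): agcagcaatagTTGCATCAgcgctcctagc
Got1 (chr19:43524689-43524718, minus strand): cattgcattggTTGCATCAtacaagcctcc

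In 6 of these 7 windows the core is the same sequence, read as TGATGCAA on one strand or TTGCATCA on the other, and Trib3 differs from them by carrying TTACATCA. The Trib3 match lies 15 bases after the transcript start, and that of Slc1a4 begins 4 bases before it. Jdp2 has 3 promoters in the table and Vldlr 2, and in each gene the match is in 1 of them.

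The 250 bases before the start are given for 3 members. Chac1 and Asns are widely used readouts of ATF4, and both hold the element. Ppp1r15a gave the largest change of all members. Its promoter holds no TGATGNAA but has the cyclic AMP response element TGACGTCA, which 2.03% of genes in the table carry and which none of the other 30 matched members had. Capitals mark the matches.
Chac1 (chr2:119350992-119351241, plus strand): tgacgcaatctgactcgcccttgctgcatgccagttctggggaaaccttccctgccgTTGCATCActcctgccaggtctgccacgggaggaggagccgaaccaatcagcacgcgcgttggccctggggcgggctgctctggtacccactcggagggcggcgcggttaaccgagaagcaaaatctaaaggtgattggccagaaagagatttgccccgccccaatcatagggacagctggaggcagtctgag
Asns (chr6:7693210-7693459, minus strand): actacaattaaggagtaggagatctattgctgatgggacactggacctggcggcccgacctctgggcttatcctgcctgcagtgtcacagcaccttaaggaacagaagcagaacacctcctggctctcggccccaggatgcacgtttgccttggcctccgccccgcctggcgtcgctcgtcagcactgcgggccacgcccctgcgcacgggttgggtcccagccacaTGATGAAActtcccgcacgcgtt
Ppp1r15a (chr7:45526269-45526518, minus strand): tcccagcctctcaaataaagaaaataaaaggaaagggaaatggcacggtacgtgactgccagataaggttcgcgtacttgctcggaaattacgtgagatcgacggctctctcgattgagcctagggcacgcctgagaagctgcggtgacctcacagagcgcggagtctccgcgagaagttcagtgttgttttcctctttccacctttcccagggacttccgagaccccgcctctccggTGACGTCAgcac

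The endoplasmic reticulum stress element, searched on both strands, was found in 0 of the 31 genes and in 0.137% of all genes. No member held matches to more than 1 of these motifs, and a match describes letters only. The 9 members that hold TGATGNAA had a median log2 fold change of 0.20 under IPRN, ranging from -0.33 for Chac1 to 0.34 for Pycr1, with 5 above 0. The 21 tested members with a promoter but no match had a median of -0.11, ranging from -0.83 to 0.34, with 6 above 0. In edgeR 1 of the 9 rose and 2 of the 21 fell, where 2.46% of all tested genes rose and 3.01% fell. A link between the element and the change was not tested.

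**Figure D1:**
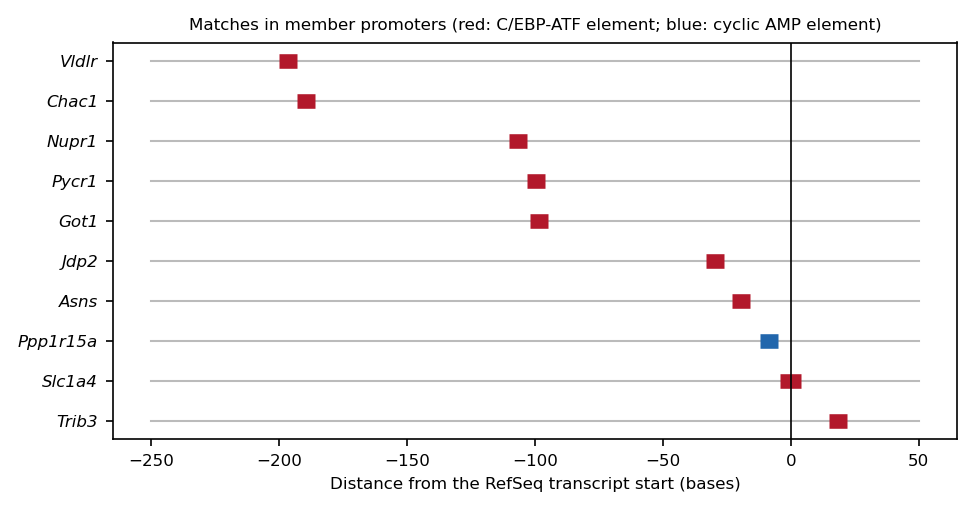
Position of each motif match (blocks) along the RefSeq promoters of 10 members, in bases from the transcript start. The C/EBP-ATF element lies between 200 bases before and 22 bases after the start in 9 genes, and the cyclic AMP element of Ppp1r15a begins 12 bases before it.

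Under IPRN the pathway did not move as a block. Ppp1r15a, Ddit4 and Cth fell, Slc1a4 rose, and the other 31 tested members did not pass the edgeR quasi-likelihood test at a Benjamini-Hochberg adjusted p under 0.05 over all tested genes. That is 4 of 35 members (11.4%), where 5.47% of all tested genes were called. Over all genes 2.46% rose and 3.01% fell, beside 1 and 3 of the members. Changes were small, with 33 of the 35 members within 1.5-fold, where 14548 of the 17159 tested genes were too. The median log2 fold change of the members was -0.07, beside 0.0016 for all genes. At an unadjusted p under 0.05 there were 20 members, where 3769 of the 17159 genes (22%) were. DESeq2 called 13 members and 1905 of the same genes (11.1%).

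The IPRN and DMSO values did not overlap for 21 of the 35 members (60.0%), against 29.6% of all tested genes. All IPRN libraries were higher for 9 members and lower for 12, where the shares over all genes were 14.9% and 14.7%. Most of these 21 members did not pass the test. The members were chosen with earlier results of these data known, so the shares are a description only.

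The counts by role stand beside 2.46% of all tested genes that rose and 3.01% that fell. By role, 2 of 16 stress factors fell and 0 rose (median log2 fold change -0.18). None of the 6 serine and one-carbon enzymes passed (median -0.11). Among 6 other amino acid enzymes 1 fell (median 0.032), and among 7 transporters 1 rose (median 0.0088). Without DMSO 1 the median of the stress factors was -0.12, and without IPRN 1 that of the serine and one-carbon enzymes was -0.06 and that of the other amino acid enzymes 0.12.

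**Figure D2:**
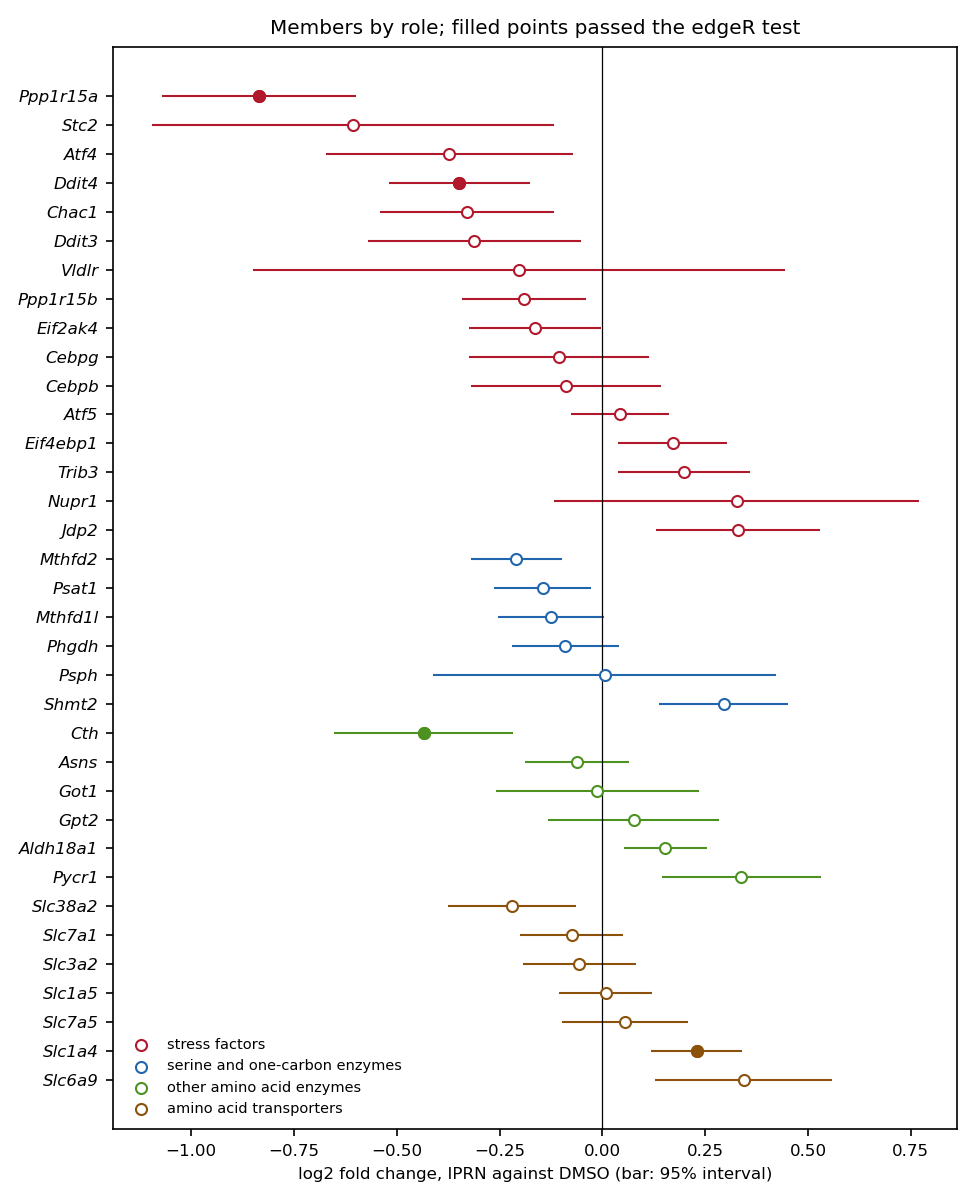
Log2 fold change of 35 members under IPRN against DMSO (points, with bars for the 95% interval of the edgeR estimate), sorted within each role. Filled points passed the test: Ppp1r15a at -0.83, Ddit4 at -0.35 and Cth at -0.43 were lower, and Slc1a4 at 0.23 was higher.

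Ppp1r15a encodes GADD34, the inducible subunit that directs protein phosphatase 1 to eIF2 and so lifts the translation block. Its gene (ENSMUSG00000040435) lies on chromosome 7 from 45522916 to 45526268, minus strand, on GRCm38. It measured 73.0, 67.3 and 81.3 CPM in DMSO 1, 2 and 3 and 45.9, 37.9 and 40.5 CPM in IPRN 1, 2 and 3. Every IPRN library was below every DMSO library, by a wide gap. The mean fell from 73.8 ± 7.03 to 41.4 ± 4.12 CPM (SD, n = 3), 1.78-fold lower, or -0.83 ± 0.0995 (SE) as a log2 fold change. The edgeR adjusted p was 0.00892. Without DMSO 1 the adjusted p was 0.0518, and without both DMSO 1 and IPRN 3 it was 0.154, with the log2 fold change still at -0.84 and -0.83. An exon of Tulp2 overlaps it on the other strand. Reads of the 2 genes cannot be told apart, but Tulp2 was counted at no more than 0.533 CPM in any library.

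Ppp1r15b encodes the constitutive counterpart of that phosphatase subunit. Its values were 224.6, 227.0 and 232.4 CPM in DMSO and 182.1, 206.8 and 210.3 CPM in IPRN. The groups did not overlap, but the difference of -0.19 ± 0.0634 on the log2 scale did not pass (edgeR adjusted p = 0.135).

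Ddit4 encodes REDD1, a stress-induced inhibitor of the growth kinase mTORC1 (ENSMUSG00000020108, chromosome 10 from 59949669 to 59951834, minus strand). DMSO libraries held 164.3, 158.4 and 169.9 CPM and IPRN libraries 116.0, 134.6 and 136.4 CPM. All IPRN values were lower, with IPRN 1 lowest. Ddit4 fell 1.27-fold, from 164.2 ± 5.75 to 129.0 ± 11.3 CPM (SD, n = 3), at an edgeR adjusted p of 0.0427. It stayed called without IPRN 1 (0.0264) but not with any other library left out (0.0743 to 0.149) or with no filter on low counts (0.0611). Nor was Ddit4 called with a term for liver transcripts (0.0731) or in the 4 libraries that hold them (0.232), at log2 fold changes of -0.35 and -0.39.

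Atf4 itself (ENSMUSG00000042406, chromosome 15 from 80255184 to 80257541, plus strand) measured 493.2, 497.3 and 375.4 CPM in DMSO and 395.1, 321.8 and 337.9 CPM in IPRN. DMSO 3 lay below IPRN 1, so the groups overlapped. The log2 fold change was -0.37 ± 0.127 (SE), with a 95% interval from -0.67 to -0.07 and an edgeR adjusted p of 0.143. DESeq2 called it at 0.0212. Messenger level is only part of ATF4 control, which acts largely on translation, and translation was not measured.

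Atf5, a relative with the same kind of translational control, had overlapping groups. Its values were 236.0, 246.4 and 256.9 CPM in DMSO and 262.1, 248.7 and 250.7 CPM in IPRN, a log2 fold change of 0.04 with a 95% interval from -0.08 to 0.16 (edgeR adjusted p = 0.704). Nup62 and Il4i1 overlap its exons on the other strand, and Nup62 ranged from 40.6 to 194.4 CPM, so the Atf5 values are uncertain.

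Ddit3 encodes CHOP, the factor linked to death after long stress. It measured 51.6, 51.1 and 49.3 CPM in DMSO and 34.2, 45.9 and 42.4 CPM in IPRN. All IPRN libraries were lower, and IPRN 1 was lowest. The log2 fold change of -0.31 ± 0.109 did not pass (edgeR adjusted p = 0.153), and without IPRN 1 it was -0.20 (0.130). Mars1 overlaps Ddit3 on the other strand at 112.0 to 137.7 CPM, so the Ddit3 level is uncertain. The other Ddit3 model had 1 count in each library and was not tested.

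Chac1, which degrades glutathione and is a strong ATF4 and CHOP target, and Trib3, a pseudokinase that feeds back on ATF4, went opposite ways. Chac1 held 32.2, 29.2 and 28.1 CPM in DMSO and 24.4, 24.9 and 21.9 CPM in IPRN. Trib3 held 43.0, 45.3 and 44.6 CPM in DMSO and 47.4, 51.3 and 53.9 CPM in IPRN. In neither gene did the groups overlap, with all IPRN values lower for Chac1 and higher for Trib3. Their log2 fold changes were -0.33 ± 0.0896 and 0.20 ± 0.0677, and neither passed (edgeR adjusted p = 0.0852 and 0.144). DESeq2 called Chac1 (adjusted p = 0.0280) but not Trib3 (0.125).

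Among the other stress factors, none passed in edgeR, while DESeq2 called Stc2 and Jdp2 (adjusted p = 0.0201 and 0.0150). Stc2, a secreted glycoprotein of the stanniocalcin family, had the second lowest value of all members, at -0.61 ± 0.207 on the log2 scale (adjusted p = 0.143). DMSO values of Stc2 were 25.1, 26.0 and 18.6 CPM, and IPRN 3 at 19.6 CPM lay inside that range. Jdp2, an AP-1 repressor, was higher in every IPRN library, at 65.4, 59.8 and 55.1 CPM against 44.9, 47.3 and 51.1 CPM, without passing (0.0730).

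Eif4ebp1, which encodes a repressor of cap-dependent translation, had all IPRN libraries higher (log2 fold change 0.17, adjusted p = 0.130), and Nupr1, a small stress-induced chromatin protein, likewise (0.33, 0.378). Nupr1 was low in 1 control library, with 32.7, 20.4 and 32.8 CPM in DMSO and 35.0, 33.3 and 39.4 CPM in IPRN, and without DMSO 2 its log2 fold change was 0.13. Eif2ak4 encodes GCN2, the eIF2 kinase that senses uncharged tRNA, and all its IPRN values were lower (-0.16, 0.215). Cebpb and Cebpg, C/EBP partners of ATF4, had overlapping groups, at -0.09 and -0.11. Cebpb was 328.5 CPM in IPRN 1 and 253.9 and 262.9 CPM in IPRN 2 and 3, and without IPRN 1 it was called lower (-0.21, adjusted p = 0.0293). Cebpb shares exon sequence with Tmem189, Cebpg with Gm44836 and Gm45095, Jdp2 with Gm47863 and Ppp1r15b with Gm26616. Vldlr, a lipoprotein receptor induced in liver by ATF4, was measured at 2.43 to 4.76 CPM (177 to 286 counts per library). It lay at -0.20 with a 95% interval from -0.85 to 0.44.

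**Figure D3:**
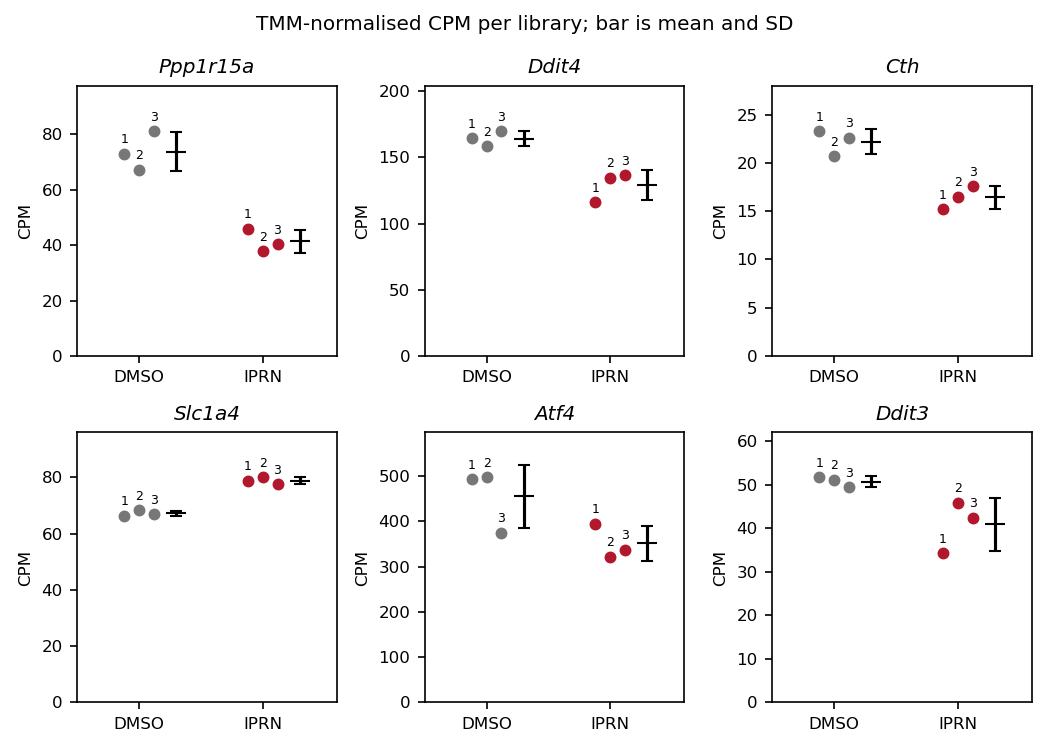
TMM-normalised CPM in each numbered library (points) with the mean and SD of 3 libraries (bars), on axes that start at 0. The groups separate for Ppp1r15a, Ddit4, Cth, Slc1a4 and Ddit3, while for Atf4 DMSO 3 at 375.4 CPM lies below IPRN 1 at 395.1 CPM.

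Serine is made from a glycolytic intermediate by PHGDH, PSAT1 and PSPH in turn, and SHMT2 and MTHFD2 pass its carbon into the mitochondrial folate pathway. Of the 6 genes in this role 0 passed in edgeR, where 5.47% of all tested genes were called. An unadjusted p under 0.05 was reached by 3, beside 22% of all tested genes. DESeq2 called 2, beside 11.1%. The groups did not overlap for 5 of the 6, with 4 lower and Shmt2 higher. Over all tested genes 29.6% did not overlap, with 14.7% lower and 14.9% higher.

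Shmt2, the mitochondrial serine hydroxymethyltransferase, measured 322.8, 310.9 and 321.0 CPM in DMSO and 427.7, 366.4 and 377.4 CPM in IPRN. Mthfd2, the next enzyme of that path, went the other way, at 132.2, 133.8 and 128.6 CPM in DMSO and 117.9, 111.3 and 112.2 CPM in IPRN. Both sat just outside the threshold, at an edgeR adjusted p of 0.0529, with log2 fold changes of 0.30 ± 0.0663 and -0.21 ± 0.0469. Without IPRN 1 both were called (0.0257 and 0.0295), as they were with a filter on a mean of 50 counts (0.0431 and 0.0430) and in DESeq2. Shmt2 shares exon sequence with Ndufa4l2, which was at or below 0.398 CPM.

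Phgdh, the entry enzyme, held 438.6, 441.0 and 457.8 CPM in DMSO and 392.2, 438.4 and 426.1 CPM in IPRN. Psat1, the aminotransferase, held 567.0, 610.0 and 617.3 CPM in DMSO and 532.8, 534.7 and 554.7 CPM in IPRN. For both, the IPRN libraries were lower by less than the test calls (log2 fold changes -0.09 and -0.15, edgeR adjusted p = 0.415 and 0.146). Mthfd1l, the mitochondrial formate-producing synthetase, lay at -0.13 (0.242). Psph, the phosphatase, was 31.1 CPM in IPRN 1 and 50.3 and 48.5 CPM in IPRN 2 and 3, on either side of its DMSO values. The interval of its log2 fold change was wide (0.0058, 95% interval from -0.41 to 0.42), and exon overlap with Cct6a, counted at 510.9 to 610.7 CPM, makes it uncertain.

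Asns encodes asparagine synthetase. It measured 290.1, 281.8 and 311.5 CPM in DMSO and 285.1, 287.2 and 274.0 CPM in IPRN. The groups overlapped, and the log2 fold change of -0.06 had a 95% interval from -0.19 to 0.06 (edgeR adjusted p = 0.578).

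Cth encodes cystathionine γ-lyase, which makes cysteine in the transsulfuration pathway (ENSMUSG00000028179, chromosome 3 from 157894248 to 157925077, minus strand). It measured 23.3, 20.7 and 22.6 CPM in DMSO and 15.2, 16.5 and 17.6 CPM in IPRN, with no overlap. Cth fell 1.35-fold, from 22.2 ± 1.34 to 16.4 ± 1.19 CPM (SD, n = 3), at an edgeR adjusted p of 0.0450, but it was not called when any 1 library was left out (0.0730 to 0.161) or with no filter on low counts (0.0672). Liver expresses Cth strongly. Liver transcripts summed to 5.11 and 6.23 CPM in DMSO 1 and IPRN 3, where Cth was 23.3 and 17.6 CPM. They were highest in IPRN 1 (127.5 CPM), where Cth was 15.2 CPM. Their part in the Cth values was not tested beyond the fits given next. With a term for liver transcripts the Cth log2 fold change was -0.44 and the adjusted p 0.0651, and in the 4 libraries with liver transcripts they were -0.45 and 0.239, so Cth was called in neither. Cbs, the enzyme before it in that pathway, had 62 counts over all libraries and was not tested. Its counts were 8, 23 and 0 in DMSO and 19, 8 and 4 in IPRN, and a count of 0 in DMSO 3 allows up to 0.0382 CPM, for counting error only.

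Proline is made from glutamate by the products of Aldh18a1 and Pycr1, and both genes were higher in every IPRN library. Pycr1 held 18.3, 19.4 and 19.4 CPM in DMSO and 25.7, 22.8 and 23.6 CPM in IPRN. Aldh18a1 held 161.9, 163.5 and 168.9 CPM in DMSO and 187.1, 182.8 and 179.9 CPM in IPRN. The groups were well apart for both, at log2 fold changes of 0.34 ± 0.0818 and 0.15 ± 0.0428, and neither passed in edgeR (adjusted p = 0.0645 and 0.0904). DESeq2 called Pycr1 (adjusted p = 0.0207) but not Aldh18a1 (0.0990). The transaminase genes Got1 and Gpt2 had overlapping groups (log2 fold changes -0.01 and 0.08). IPRN 1 was the lowest library for both, at 64.7 and 42.7 CPM.

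Slc1a4 encodes ASCT1, which carries alanine, serine, cysteine and threonine (ENSMUSG00000020142, chromosome 11 from 20302180 to 20332713, minus strand). DMSO libraries held 66.3, 68.3 and 66.9 CPM and IPRN libraries 78.8, 79.9 and 77.5 CPM. The libraries of each group lay close together, and the groups did not overlap. The gene rose 1.17-fold, from 67.2 ± 0.990 to 78.8 ± 1.21 CPM (SD, n = 3), at an edgeR adjusted p of 0.0406. It stayed called without IPRN 1 (0.0443) but not with any other library left out (0.103 to 0.160) or with no filter on low counts (0.0691). A term for liver transcripts (0.0780) and the 4 libraries that hold them (0.274) also left Slc1a4 uncalled, with the log2 fold change at 0.23 in both. Slc1a5, which encodes the related glutamine carrier ASCT2, lay at 0.0088 with a 95% interval from -0.10 to 0.12.

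Slc7a5 and Slc3a2 encode the light and heavy chains of the leucine transporter LAT1. Slc7a5 measured 270.5, 269.5 and 277.3 CPM in DMSO and 257.2, 299.8 and 292.0 CPM in IPRN. Slc3a2 measured 244.7, 260.6 and 246.3 CPM in DMSO and 252.4, 245.3 and 225.1 CPM in IPRN. The groups overlapped for both chains (log2 fold changes 0.05 and -0.06, edgeR adjusted p = 0.704 and 0.653).

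Slc38a2, which encodes the starvation-induced neutral amino acid carrier SNAT2, measured 480.6, 475.3 and 465.1 CPM in DMSO and 445.5, 390.5 and 383.5 CPM in IPRN. All IPRN values were lower, yet the log2 fold change of -0.22 ± 0.0656 did not pass (edgeR adjusted p = 0.105). Without IPRN 1 it was called in edgeR (-0.29, 0.0101), and DESeq2 called it with all libraries (adjusted p = 0.0451). Slc6a9, the glycine transporter gene GlyT1, was higher in all IPRN libraries, at 64.9, 53.6 and 55.3 CPM against 43.9, 48.8 and 44.3 CPM, without passing (0.0792). DESeq2 called Slc6a9 (adjusted p = 0.0152). The overlap of Slc6a9 with B4galt2, which was counted at 58.8 to 89.7 CPM, makes its values uncertain. Slc7a1, the cationic amino acid transporter gene, had overlapping groups (-0.07).

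**Figure D4:**
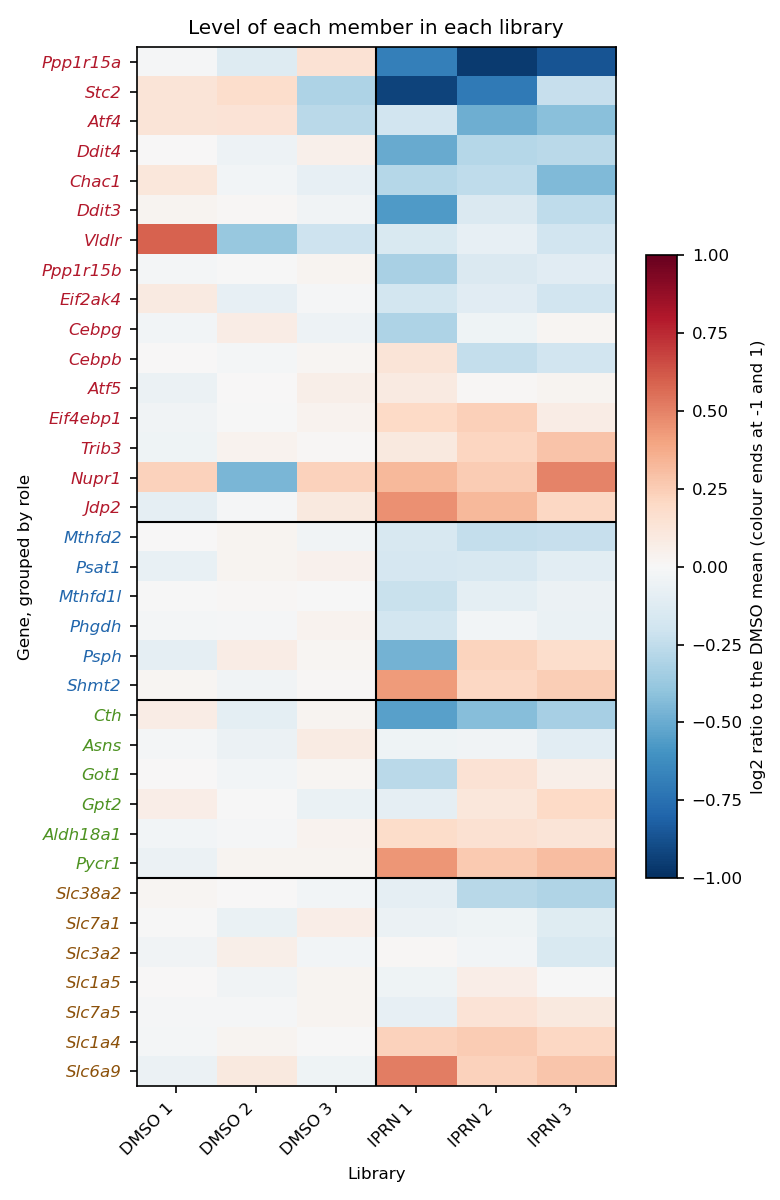
Log2 ratio of each member's CPM to its mean in the DMSO libraries (colour, red higher and blue lower), with 6 libraries in columns and 35 members in rows grouped by role. IPRN 1 differs from IPRN 2 and IPRN 3 in rows such as Psph and Got1, while Ppp1r15a is blue and Slc1a4 red in all 3 IPRN libraries.

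The deposited FPKM values, which are scaled by gene length, allow members to be ranked by level. Averaged over the 6 libraries, Cebpb (173.6 FPKM), Phgdh (156.4), Atf4 (153.7), Psat1 (120.3), Atf5 (112.8) and Shmt2 (102.4) were highest. Cebpb, Phgdh and Atf4 had SDs of 14.9, 8.78 and 28.5 FPKM over all libraries, so their order is within their spread. Asns followed at 94.7 FPKM. The chains of LAT1 stood close together, Slc7a5 at 67.4 and Slc3a2 at 62.6 FPKM, above Slc38a2 (44.7) and Slc1a5 (34.0). At the bottom were Stc2 (3.34), Vldlr (0.274) and Cbs (0.0170). Among called members Ddit4 was at 75.1, Ppp1r15a at 17.6, Slc1a4 at 16.7 and Cth at 6.22 FPKM.

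**Figure D5:**
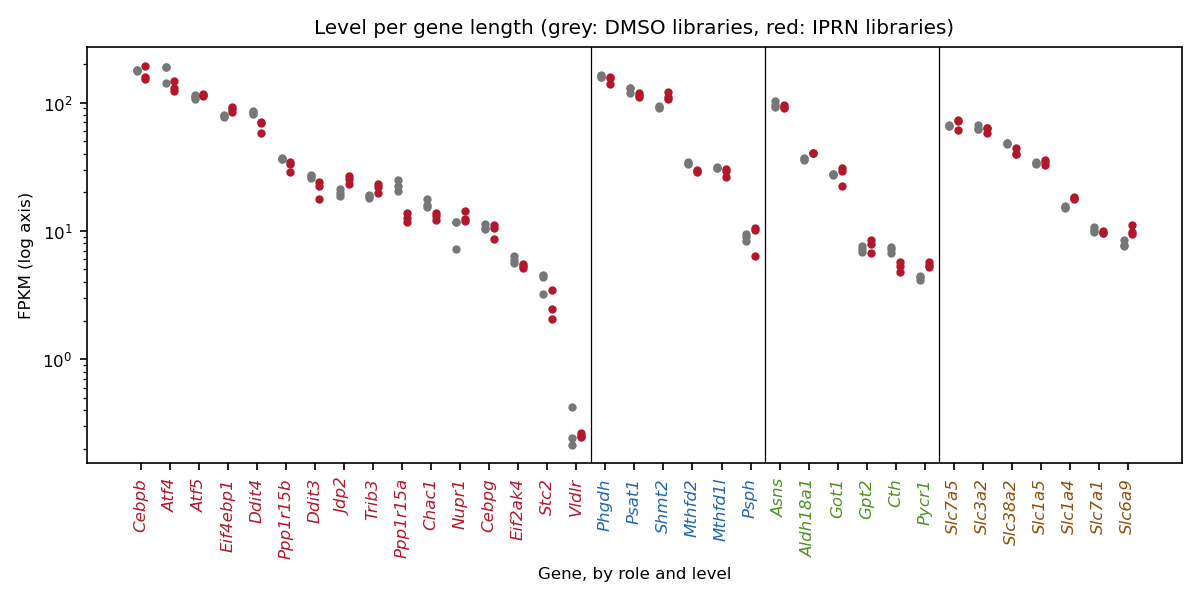
Deposited FPKM of each tested member in each library (log axis; grey points DMSO, red points IPRN), sorted by mean within each role. The span between Cebpb at 173.6 and Vldlr at 0.274 FPKM is far wider than any shift between the groups.

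Other genes around the pathway were counted in the same fit, where 2.46% of all tested genes rose and 3.01% fell. Of 24 further ATF4 targets tested, 2 fell and 0 rose, with a median log2 fold change of -0.09. That is 8.33% called, beside 5.47% of all tested genes. Atf3, a stress-induced repressor that is also an immediate early gene, held 12.6, 13.2 and 12.4 CPM in DMSO and 3.04, 3.10 and 3.35 CPM in IPRN. Atf3 fell 4.02-fold, or by 2.01 ± 0.102 on the log2 scale, at an edgeR adjusted p of 0.000194. It was called whichever library was left out. Vegfa, which encodes the angiogenic growth factor, fell 1.29-fold from 162.8 ± 3.01 to 126.4 ± 7.22 CPM (edgeR adjusted p = 0.0181) but stayed called in only 1 of the 6 fits with a library left out.

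Upstream, 1 of 17 eIF2 pathway genes rose and 1 fell (median -0.03), or 11.8% beside 5.47% of all tested genes. Eif2s1, the eIF2 subunit that the kinases phosphorylate, fell from 245.0 ± 4.45 to 206.5 ± 3.11 CPM (edgeR adjusted p = 0.0246). Gcn1, the ribosome-bound activator of GCN2, rose from 175.6 ± 5.33 to 213.4 ± 13.1 CPM (0.0407). Each was called in 1 of the 6 fits with a library left out. Gcn1 shares exon sequence with Mir7029.

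Of 20 cytosolic aminoacyl-tRNA synthetase genes, which charge tRNAs and are ATF4 targets in part, 1 fell and 0 rose (median -0.09). That gene was Rars, the arginyl synthetase, which fell 1.28-fold from 254.2 ± 7.97 to 199.3 ± 4.71 CPM (edgeR adjusted p = 0.0123). It was called in 2 of the 6 fits with a library left out. The 1 called gene is 5% of the list, beside 5.47% of all tested genes. Values of 9 of the 20 were lower in every IPRN library and 1 was higher in every one. The shares over all tested genes were 14.7% and 14.9%.

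Among 21 further amino acid transporters 2 fell and 1 rose (median -0.18), or 14.3% beside 5.47% of all tested genes. The system A carrier gene Slc38a4 fell 1.39-fold, to 107.9 ± 7.59 from 150.2 ± 4.64 CPM (edgeR adjusted p = 0.0130), and the glutamate carrier gene Slc1a3 fell 1.40-fold to 16.0 ± 0.172 CPM (0.0280). Slc38a10 rose 1.22-fold to 210.4 ± 4.67 CPM (0.0172) and shares exon sequence with Gm11769. With a library left out, Slc38a4 was called in 3 of the 6 fits, Slc1a3 in 1 and Slc38a10 in 1.

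None of 20 further serine, glycine and folate genes was called in edgeR, where 5.47% of all tested genes were. An unadjusted p under 0.05 was reached by 4, beside 22% of all tested genes, and DESeq2 called 3, beside 11.1%. In the list for amino acid sensing by mTORC1, 2 of 32 rose and 0 fell (median 0.081), or 6.25% beside 5.47% of all genes. Lamtor2, part of the lysosomal Ragulator anchor, rose 1.27-fold to 33.3 ± 1.01 CPM, and Castor2, of the arginine sensor family, rose 1.24-fold to 42.6 ± 2.60 CPM (edgeR adjusted p = 0.0407 and 0.0478). Lamtor2 was called in 1 of the 6 fits with a library left out and Castor2 in 0.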

How the data were processed

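Polyadenylated RNA of NIH3T3 cells was sequenced, per the labels' protocols, without a step that marks strand. The deposited tables hold whole-number counts and FPKM values per Ensembl gene, per the file headers. Cutadapt 1.9 is named in the submitters' processing notes; no source used here names the aligner, counter or genome build. Among 55141 gene IDs shared with GENCODE M21, 94.2% had an identical position on GRCm38, and exon overlap was taken from that annotation.

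The test was that of edgeR 4.0.16 (R 4.3.3), run on the counts: TMM, the expression filter on groups (minimum count 10) and the quasi-likelihood test, two-sided, with Benjamini-Hochberg adjustment over all tested genes and calls under 0.05. The edgeR script was tested on simulated data. SEs come from the fold change and the F statistic, and 95% intervals from these SEs. FPKM values were ranked, not tested. A floor of 3 counts is 0.0382 to 0.0497 CPM, for counting error only. Members and lists were chosen with earlier results of these data known. All members are named; library values are given for called members and for 12 anchor genes, and for some others chosen after their values were seen. The 6 pathway lists and 8 marker lists come from textbook knowledge. Epithelial, endothelial, erythroid, muscle and neural markers summed to at most 6.49 CPM per library. Alternatives were DESeq2 1.42.0, RLE scaling, other filters, each library left out, a replicate block and 2 ways of handling the liver transcripts.

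Counts of replicate pairs differed by 34.0 to 97.6 chi-square units per degree of freedom, so each library was kept as a sample.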

Additional observations from a re-analysis of the deposited data

How the results depend on the processing

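Genes called over the whole table numbered 938 of 17159 tested. They were 1908 with DESeq2, 621 with no filter on low counts, 429 with a term for liver transcripts, 103 with a replicate block, 53 in the 4 libraries with liver transcripts, and 133 to 1047 with 1 library left out. Members called numbered 4. They were 13 with DESeq2, beside 1905 of 17159 genes, and 1 with no filter, beside 621 of 27168. The liver term and the replicate block gave 1 member each, beside 429 and 103 of 17159 genes. In the 4 libraries with liver transcripts 0 members were called, beside 53 of 17638 genes. There 13 members had an unadjusted edgeR p under 0.05, beside 2627 genes. With 1 library left out the count of members was 0 to 7. It was 0 without DMSO 1, beside 133 of 18006 genes. In that fit 14 members had an unadjusted edgeR p under 0.05, beside 2983 genes. Without IPRN 1 it was 7 members, beside 1047 of 17861 genes. Ppp1r15a was the member called in each fit that called 1. RLE scaling gave 4, beside 941 of 17159 genes, and a filter on a mean of 50 counts gave 6, beside 1161 of 13406.

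Replicate numbers did not pair the libraries: deviations of same-numbered libraries correlated at -0.18, 0.086 and -0.13, and not every library correlated best with its own number.

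The median log2 fold change of stress factors was -0.18 and ran from -0.20 to -0.12 with 1 library left out, and it was -0.15 in the libraries with liver transcripts. That of other amino acid enzymes was 0.032 and ran from -0.017 to 0.12. The serine enzymes' median ran from -0.13 to -0.061 and the transporters' from -0.017 to 0.033, both within the spread between replicates. Over 13 alternatives 31 of 35 members kept their sign. Vldlr ran from -0.38 to 0.15 with 1 library left out, above 0 only without DMSO 1, and was 0.17 in the libraries with liver transcripts. Psph ran from -0.11 to 0.20, with -0.04, -0.11 and -0.09 without DMSO 1, IPRN 2 and IPRN 3, and was -0.024 with the replicate block and -0.13 in the libraries with liver transcripts. Got1 ran from -0.092 to 0.10, above 0 only without IPRN 1. Slc1a5 ran from -0.017 to 0.033, with -0.0060 and -0.017 without DMSO 2 and IPRN 2. None of these 4 members passed in any of these fits. The cause was not tested.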
